A study of Homo sapiens with 6 samples.

Results

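The genes described here encode 10 amino acid transporters of the plasma membrane, SLC7A5, SLC3A2, SLC1A5, SLC7A11, SLC7A1, SLC7A6, SLC38A1, SLC38A2, SLC1A4 and SLC43A1, taken by name out of 58735 genes in the expression table. The rule for membership goes by gene name, and all 10 were found, but the genes were chosen with earlier results of these data known. RNA sequencing was performed in MM.1S, a line of human myeloma cells, with 3 control libraries and 3 PRMT1 knockdown (PRMT1 KD) libraries. Control cells received a negative control siRNA (si-NC) and PRMT1 KD cells received si-PRMT1, both at 100 nM, and the RNA was taken 72 h after transfection. The single comparison asks which transcripts differ once PRMT1, an enzyme that methylates arginine residues of proteins, is depleted. All 6 libraries share the line and the transfection, so a result describes 1 cell line after a transient knockdown, and no library of untransfected cells was analysed here.

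Amino acids cross the plasma membrane through carriers that differ in what they move and in what drives them. The light chains SLC7A5 (LAT1), SLC7A6 (y+LAT2) and SLC7A11 (xCT) need the glycoprotein SLC3A2 (CD98 heavy chain, 4F2hc) to reach the cell surface, and each is an exchanger that lets an amino acid in as another leaves. SLC1A5, SLC38A1 and SLC38A2 bring in glutamine and other neutral amino acids with sodium, and the exchangers then trade part of that pool for leucine. Plasma cells and myeloma cells secrete large amounts of antibody and draw on this supply, and transcription factors such as MYC, ATF4 and NRF2 (NFE2L2) are known to set the transcription of several of these genes.

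The siRNA targets are shown because the knockdown rests on them, and the bases that pair with the siRNA seed can also occur in other transcripts. Each is the sense strand of the 19 bases of PRMT1 that the study lists, written as DNA 5′ to 3′, with the 7 bases that pair with the seed of the guide strand in capitals. In GENCODE 29 on hg38 they lie in the coding sequence of PRMT1 on the plus strand, at chr19:49681947-49681965 in exon 3, chr19:49686635-49686653 in exon 9 and chr19:49688178-49688196 in exon 10 of transcript ENST00000391851.8. Which of the 3 siRNAs was used for these libraries was not given in the sources used here.
si-PRMT1-1, target in exon 3: gcaactccatgTTTCATAa
si-PRMT1-2, target in exon 9: agacggtgttcTACATGGa
si-PRMT1-3, target in exon 10: ccatcgacctgGACTTCAa

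The first target is present in 12 of 12 PRMT1 transcripts with an annotated coding sequence, and the other two are present in 4 of 12 each. The 7 bases in capitals of si-PRMT1-1 occur in annotated 3′ UTRs of 24.4% of 10073 genes, those of si-PRMT1-2 in 12.7% and those of si-PRMT1-3 in 18.5%. Among the transporter genes, SLC7A11 has a match to each of the 3, SLC38A1 to si-PRMT1-1 and si-PRMT1-3, and SLC7A5 to si-PRMT1-3. The other 7 have none. The part of these matches in any value below was not tested.

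Upstream sequence is shown for the 3 transporter genes with the smallest unadjusted p-values, SLC7A5, SLC38A2 and SLC38A1. It was read from RefSeq windows on GRCh38.p14 that run from 250 bases before to 50 bases after an annotated start site, and each stretch below ends before the start site and before any annotated exon of its gene. Capitals mark matches to 3 motifs, searched on both strands: CACGTG (the E-box bound by MYC and related factors), TGATGNAA (the element bound by ATF4 with a C/EBP partner) and TGACNNNGC (the antioxidant response element bound by NRF2). All 3 stretches are on the minus strand, at chr16:87869508-87869757 for SLC7A5, chr12:46372868-46373023 for SLC38A2 and chr12:46266517-46266766 for SLC38A1. The SLC38A1 stretch lies within the annotated span of its own gene, 46183063 to 46270017, and the other SLC38A1 window is not shown. A match that runs past the start site is shown only up to it.
SLC7A5: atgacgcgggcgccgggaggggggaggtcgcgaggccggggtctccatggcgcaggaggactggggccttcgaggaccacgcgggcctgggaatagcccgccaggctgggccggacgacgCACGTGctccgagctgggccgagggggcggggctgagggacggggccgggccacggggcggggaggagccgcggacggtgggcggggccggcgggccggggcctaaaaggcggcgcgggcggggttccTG
SLC38A2: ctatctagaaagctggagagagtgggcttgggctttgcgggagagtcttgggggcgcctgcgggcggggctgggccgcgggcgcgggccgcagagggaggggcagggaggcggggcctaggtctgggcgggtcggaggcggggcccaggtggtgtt
SLC38A1: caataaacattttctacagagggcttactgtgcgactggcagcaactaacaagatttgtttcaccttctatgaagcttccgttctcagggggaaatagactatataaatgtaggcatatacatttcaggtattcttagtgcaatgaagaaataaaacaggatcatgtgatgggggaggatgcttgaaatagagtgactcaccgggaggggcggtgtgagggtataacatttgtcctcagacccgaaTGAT

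The SLC7A5 window held CACGTG from position -130 and TGACGCAGC from position -2, with the start site as position 0. The SLC38A1 window held TGATGAAA from position -4, while the other SLC38A1 window, whose start site is at 46267987 on chromosome 12, held none of the 3 motifs. The SLC38A2 window held none of them either, which says only that these letters are not in that window. Across the 16 windows of the 9 matched genes (all but SLC7A11), TGATGNAA was in 5, CACGTG in 3 and TGACNNNGC in 5. Of 34796 windows genome-wide, 3.63% held TGATGNAA, 7.20% held CACGTG and 13.3% held TGACNNNGC. The other matches to TGATGNAA were in windows of SLC3A2, SLC1A5, SLC7A1 and SLC1A4, those to CACGTG in windows of SLC1A5 and SLC43A1, and those to TGACNNNGC in windows of SLC3A2, SLC1A5, SLC7A1 and SLC7A6. No matches overlapped each other, and a match is a description of letters, not of binding. The motifs were chosen after matches in these windows had been looked at, so the counts carry no test.

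Levels are given as FPKM, reads scaled to library size and to the length listed for each gene. Comparisons of level between genes, such as the order, the shares and the size of a ratio below, depend on that listed length. The listed length was 4745 bases for SLC7A5, with 2 annotated coding transcripts, and 5178 for SLC3A2, with 13. Which transcripts were present was not tested. Reads assigned to genes, worked back from the values, numbered 14439217 to 16465026 per library. PRMT1 fell from 61.1 ± 1.97 FPKM in control to 13.3 ± 0.775 in PRMT1 KD (SD, n = 3 each), which is 21.7% of control, with a limma log2 difference of -2.13 and an adjusted p of 2.77e-05. All 8 plasma cell markers checked (SDC1, CD38, TNFRSF17, XBP1, IRF4, PRDM1, MZB1 and JCHAIN) had a mean of at least 1 FPKM, with a summed level of 1291 to 1372 in control and 1291 to 1462 in PRMT1 KD. Of the T cell markers, 2 of 3 reached that level, with a sum of 35.7 to 39.4 in control and 39.8 to 42.5 in PRMT1 KD, carried by CD3E, while CD3D had 0.678 and 0.132 FPKM. The B cell sum was at most 1.52 FPKM in any library with MS4A1 at 0, the myeloid sum was at most 0.146, and the fibroblast sum was at most 0.0401 with COL1A2 at 0. KRT8 carried the epithelial sum, at 20.8 to 23.5 in control and 19.9 to 20.6 in PRMT1 KD. The part of these markers in the results was not tested.

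All 10 transporter genes passed the filter on low values, a mean of at least 1 FPKM over the 6 libraries. None of the 10 had an adjusted p under 0.05 in limma on log2(FPKM + 1), beside 2.05% of all 13585 genes tested. An unadjusted p under 0.05 was found for 3 of the 10, higher in PRMT1 KD for SLC7A5 and SLC38A2 and lower for SLC38A1, beside 19.5% of all genes tested. The libraries of the groups did not overlap for 4 of the 10, the same 3 genes and SLC7A6, beside 25.9% of all genes tested. Mean levels were higher in PRMT1 KD for 6 genes and lower for 4, and the median log2 difference was 0.07, beside 0.0095 over all genes tested. Read counts put through limma voom in place of FPKM gave an adjusted p under 0.05 to SLC7A5, SLC38A2 and SLC38A1. That fit called 927 of all 13585 genes tested.

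SLC7A5, the light chain that imports leucine and other large neutral amino acids, lies on chromosome 16 from 87830023 to 87869488 (hg38, minus strand). It was the most abundant of the 10 in every library, at 207, 218 and 185 FPKM in control replicates 1 to 3 and at 267, 260.2 and 227 FPKM in PRMT1 KD replicates 1 to 3. Every PRMT1 KD library was above every control library, although the lowest PRMT1 KD library and the highest control library were close. The means were 203 ± 16.8 and 251 ± 21.8 FPKM (SD, n = 3 each), a log2 difference of 0.31 with a standard error of 0.0842 and a 95% interval of 0.11 to 0.50. The limma p was 0.00839 unadjusted and 0.117 adjusted. With voom the adjusted p was 0.0113, and over all alternatives it ran from 0.0113 to 0.299. Between 14487 and 20950 reads per library stood behind these values, so counting error was small beside the spread between libraries. The pseudogene SLC7A5P1 held 44 to 88 reads per library, 0.398% of the SLC7A5 reads, and SLC7A5P2 held 0, and adding the pseudogene reads to the gene left the log2 difference at 0.30.

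SLC3A2, the heavy chain partner of the 3 light chains, lies on chromosome 11 from 62856102 to 62888875 (plus strand). Its levels were 97.8, 104.2 and 94.8 FPKM in control and 107.8, 107.7 and 98.4 FPKM in PRMT1 KD. The groups overlapped, because PRMT1 KD replicate 3 lay below control replicate 2. The means of 98.9 ± 4.81 and 104.6 ± 5.37 FPKM (SD, n = 3 each) differed by 0.080 on the log2 scale, with a 95% interval of -0.054 to 0.21 and an adjusted limma p of 0.483. It was 0.050 without control replicate 3, 0.12 without control replicate 2 and 0.12 without PRMT1 KD replicate 3.

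SLC7A6, the light chain that exports arginine in exchange for neutral amino acids and sodium, lies on chromosome 16 from 68264516 to 68301823 (plus strand). It was among the scarcer genes of the set, at 7.89, 7.89 and 7.23 FPKM in control and 8.60, 9.29 and 8.09 FPKM in PRMT1 KD. The groups did not overlap, with the PRMT1 KD libraries higher. The log2 difference was 0.16, its 95% interval of -0.0032 to 0.31 reached 0, and the adjusted limma p was 0.264. The gene shares part of its position with SLC7A6OS on the opposite strand, which held reads equal to 26.2% of those of SLC7A6 and had a log2 difference of -0.039, and with AC020978.9, which held 10.7%. The strand setting of the counting was not given in the sources used here, so reads of these genes cannot be told apart with certainty.

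SLC7A11, the light chain of the cystine and glutamate exchanger, lies on chromosome 4 from 138164097 to 138242349 (minus strand). It had the widest relative spread of the 10 genes within the groups, at 7.59, 6.82 and 9.11 FPKM in control and 7.51, 6.56 and 8.98 FPKM in PRMT1 KD. The groups overlapped almost fully. The log2 difference was -0.027 with a 95% interval of -0.33 to 0.28 and an adjusted limma p of 0.938, and its sign turned when control replicate 3 or PRMT1 KD replicate 2 was left out. The antisense gene SLC7A11-AS1 held reads equal to 2.11% of those of SLC7A11.

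**Figure D1:**
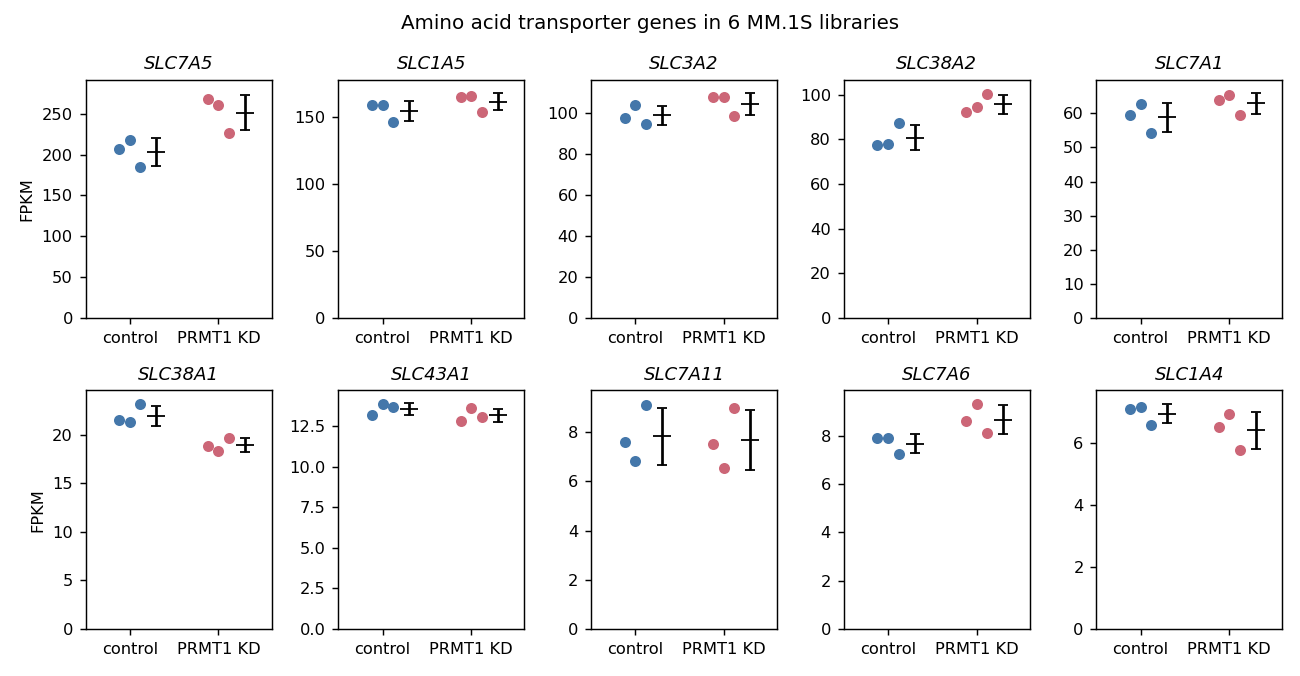
FPKM (vertical axes, each from 0) of the 10 transporter genes in the 3 control (blue) and 3 PRMT1 KD (red) libraries, with replicates 1 to 3 from left to right in each group, and the mean ± SD as a black dash with bars. The groups are apart for SLC7A5, SLC38A2 and SLC7A6, with PRMT1 KD higher, and for SLC38A1, with PRMT1 KD lower, and they overlap for the other 6.

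SLC38A2 (SNAT2), a sodium-coupled importer of glutamine, alanine and other small neutral amino acids that is known to be induced when amino acids run short, lies on chromosome 12 from 46358189 to 46372867 (minus strand). Its levels were 77.2, 77.7 and 87.1 FPKM in control and 92.1, 94.5 and 100.3 FPKM in PRMT1 KD. All PRMT1 KD libraries were above all control libraries. The means of 80.7 ± 5.59 and 95.6 ± 4.21 FPKM (SD, n = 3 each) gave a log2 difference of 0.24 with a standard error of 0.0614 and a 95% interval of 0.099 to 0.39. The limma p was 0.00535 unadjusted, the smallest of the 10 genes, and 0.0990 adjusted. With voom the adjusted p was 0.0183, and over all alternatives it ran from 0.0183 to 0.298.

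SLC38A1 (SNAT1), a related sodium-coupled importer of glutamine, lies on the same chromosome from 46183063 to 46270017 (minus strand). Its levels were 21.5, 21.3 and 23.2 FPKM in control and 18.8, 18.4 and 19.7 FPKM in PRMT1 KD. The groups did not overlap, with all PRMT1 KD libraries lower. The means of 22.0 ± 1.03 and 18.96 ± 0.685 FPKM (SD, n = 3 each) gave a log2 difference of -0.20 with a standard error of 0.0533 and a 95% interval of -0.33 to -0.077. The limma p was 0.00659 unadjusted and 0.106 adjusted. With voom the adjusted p was 0.0397, and over all alternatives it ran from 0.0397 to 0.274. Seed matches of si-PRMT1-1 were in 4 of 7 annotated coding transcripts of SLC38A1 and those of si-PRMT1-3 in 1 of 7. For SLC7A5, which was higher in PRMT1 KD, those of si-PRMT1-3 were in 2 of 2. For SLC7A11, with a log2 difference of -0.027, those of each siRNA were in 1 of 2. The part of these matches in the levels was not tested.

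SLC1A5 (ASCT2), a sodium-dependent exchanger that brings glutamine into the cell, lies on chromosome 19 from 46774883 to 46788594 (minus strand). It was the second most abundant of the 10 genes, at 158.7, 159.1 and 146.1 FPKM in control and 164.9, 165.6 and 153.7 FPKM in PRMT1 KD. The groups overlapped, since PRMT1 KD replicate 3 lay below 2 control libraries. The log2 difference was 0.062 with a 95% interval of -0.063 to 0.19 and an adjusted limma p of 0.564. It was 0.022 without control replicate 3 and 0.096 without PRMT1 KD replicate 3.

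SLC1A4 (ASCT1), which exchanges alanine, serine, cysteine and threonine, lies on chromosome 2 from 64988477 to 65023865 (plus strand) and had the lowest mean of the set. Its levels were 7.11, 7.18 and 6.61 FPKM in control and 6.54, 6.97 and 5.79 FPKM in PRMT1 KD, and the groups overlapped. The log2 difference was -0.10 with a 95% interval of -0.28 to 0.075 and an adjusted limma p of 0.497. It was -0.039 without PRMT1 KD replicate 3 and -0.15 without PRMT1 KD replicate 2.

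SLC7A1 (CAT1), the main importer of arginine and lysine in many dividing cells, lies on chromosome 13 from 29509410 to 29595688 (minus strand). Its levels were 59.6, 62.6 and 54.3 FPKM in control and 63.9, 65.3 and 59.5 FPKM in PRMT1 KD. The groups overlapped, with PRMT1 KD replicate 3 below control replicates 1 and 2. The log2 difference was 0.096 with a 95% interval of -0.057 to 0.25 and an adjusted limma p of 0.465. It was 0.040 without control replicate 3.

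SLC43A1 (LAT3), which carries leucine and other large neutral amino acids without SLC3A2, lies on chromosome 11 from 57484534 to 57515786 (minus strand). Its levels were 13.2, 13.9 and 13.7 FPKM in control and 12.8, 13.6 and 13.1 FPKM in PRMT1 KD, with overlapping groups. The log2 difference was -0.040 with a 95% interval of -0.16 to 0.076 and an adjusted limma p of 0.697. This interval was the narrowest of the 10, and leaving out 1 library moved the difference between -0.063 and -0.023.

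**Figure D2:**
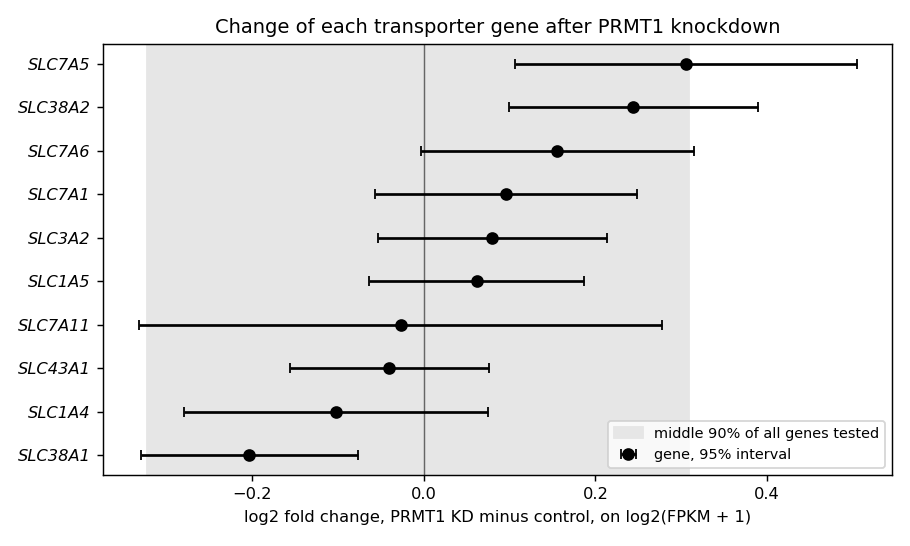
Log2 difference, PRMT1 KD minus control on log2(FPKM + 1) (horizontal axis), for the 10 transporter genes (points) with limma 95% intervals (bars), and the middle 90% of all 13585 genes tested (grey band). The intervals of SLC7A5, SLC38A2 and SLC38A1 lie off 0, and each point lies between -0.32 and 0.31, inside the grey band.

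The order of the levels was close to the same in both groups. By control mean it ran SLC7A5, SLC1A5, SLC3A2, SLC38A2, SLC7A1, SLC38A1, SLC43A1, SLC7A11, SLC7A6 and SLC1A4. Neighbours in this order were apart in all 3 control libraries except SLC7A11 and SLC7A6. In PRMT1 KD SLC7A6 stood above SLC7A11, and 3 pairs of neighbours overlapped, SLC3A2 with SLC38A2, SLC7A6 with SLC7A11, and SLC7A11 with SLC1A4. The summed level of the 10 genes was 658, 678 and 627 FPKM in control and 750.3, 748 and 694 FPKM in PRMT1 KD. Each PRMT1 KD library thus exceeded each control library. The sum holds the differences of SLC7A5 and SLC38A2 and is not separate evidence, and 4 of the 10 genes were lower in PRMT1 KD. SLC7A5 made up 29.5% to 32.1% of that sum in control and 32.6% to 35.6% in PRMT1 KD. The share of SLC1A5 was 23.3% to 24.1% in control and 22.0% to 22.1% in PRMT1 KD.

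Ratios between transporters were compared because light chains share a heavy chain and related carriers share substrates. For 6 ratios the difference in mean log2 ratio was tested with an exact two-sided permutation test over libraries, in which 3 against 3 cannot give a p below 0.1. None of the 6 could therefore reach 0.05. How often ratios of other gene pairs are apart between the groups was not computed. For single genes it was 25.9% of all genes tested. The ratio of SLC38A2 to SLC38A1 was 3.59, 3.65 and 3.76 in control and 4.89, 5.15 and 5.09 in PRMT1 KD. The relative levels of these 2 glutamine importers were thus fully apart between the groups, and the change of 1.38-fold was the largest of the 6 ratios (log2 difference 0.46, exact permutation p of 0.1, adjusted 0.15).

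The ratio of SLC7A5 to its heavy chain SLC3A2 was 2.12, 2.09 and 1.95 in control and 2.48, 2.42 and 2.30 in PRMT1 KD. It was 1.17-fold higher without overlap (log2 difference 0.23, exact permutation p of 0.1, adjusted 0.15). The ratio of SLC7A5 to SLC1A5 was 1.18-fold higher, also without overlap and with the same exact permutation p, at 1.30, 1.37 and 1.26 in control and 1.62, 1.57 and 1.47 in PRMT1 KD. The ratio of SLC1A4 to SLC1A5 was 0.882-fold that of control without overlap (log2 difference -0.18, exact permutation p of 0.1, adjusted 0.15). Relative to SLC3A2, neither SLC7A6 (log2 difference 0.094, exact permutation p of 0.2, adjusted 0.24) nor SLC7A11 (log2 difference -0.11, exact permutation p of 0.7, adjusted 0.70) was apart between the groups. The ratios that hold SLC7A5 or SLC38A2 share those genes' own differences and are not separate evidence.

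**Figure D3:**
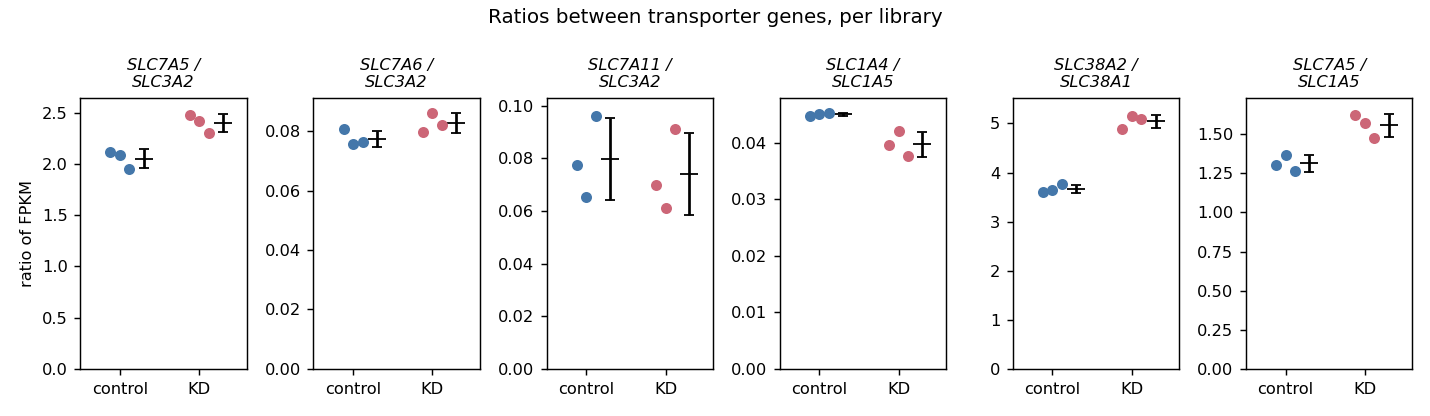
Ratio of FPKM between pairs of transporter genes (vertical axes, each from 0) in the 3 control (blue) and 3 PRMT1 KD (red) libraries, replicates 1 to 3 from left to right in each group, with the mean ± SD in black. SLC38A2 over SLC38A1 moves from 3.59 to 3.76 in control to 4.89 to 5.15 in PRMT1 KD. The groups overlap only for SLC7A6 and SLC7A11 over SLC3A2. The share of other gene pairs without overlap was not computed, and for single genes it was 25.9%.

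Other amino acid carriers of the plasma membrane were mostly not measured at a testable level in this line. Of 29 such genes, 24 were under the filter, with at most 0.378 FPKM on average, and 4 of those were listed at 0 in every library. The 5 tested were SLC38A5, SLC6A9, SLC6A6, SLC1A3 and SLC43A2, and none had an adjusted p under 0.05 (limma). SLC38A5, another glutamine carrier of the SLC38 family, was the one with an unadjusted p under 0.05, at 25.3, 25.2 and 22.1 FPKM in control and 27.6, 28.8 and 28.7 FPKM in PRMT1 KD. Its log2 difference was 0.22 with an adjusted limma p of 0.120, and its groups did not overlap. Over all genes tested, 19.5% had an unadjusted limma p under 0.05 and 25.9% had groups without overlap. The same shares stand beside the genes named in the lists below. SLC6A9, a glycine carrier, and SLC6A6, the taurine carrier, had log2 differences of -0.071 and -0.040 with overlapping groups. The median log2 difference of the 5 was -0.040.

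Amino acid carriers of the lysosome had a median log2 difference of 0.038 over 7 of 9 genes tested, and none had an adjusted p under 0.05. CTNS, the cystine exporter of the lysosome, had 8.52 ± 0.504 FPKM in control and 7.38 ± 0.410 in PRMT1 KD (SD, n = 3 each), a log2 difference of -0.18 with an unadjusted limma p of 0.0251 and an adjusted p of 0.184. MFSD12 and SLC38A7 had overlapping groups, with log2 differences of 0.081 and -0.024.

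Genes that use cystine for glutathione and redox defence were all measurable, 7 of 7, with a median log2 difference of 0.026 and none with an adjusted p under 0.05. CHAC1, which breaks down glutathione, had 24.9, 27.0 and 23.4 FPKM in control and 19.8, 20.1 and 18.3 FPKM in PRMT1 KD. Its log2 difference was -0.35 with a 95% interval of -0.51 to -0.20. The adjusted limma p was 0.0510 and ran from 0.0109 to 0.183 over the alternatives. GPX4, which reduces lipid peroxides, had a log2 difference of 0.026 with overlapping groups, and GSR, which regenerates glutathione, one of -0.094 without overlap and with an adjusted limma p of 0.312. GSS, chosen after its values were seen, was the other gene of this list with an unadjusted p under 0.05, beside 19.5% of all genes tested. Its log2 difference was -0.15 with an adjusted limma p of 0.148.

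Enzymes of glutamine and glutamate use had a median log2 difference of -0.029 over 7 of 9 genes tested, none with an adjusted p under 0.05. GOT2, the mitochondrial aspartate aminotransferase, had 71.9 ± 1.41 FPKM in control and 65.1 ± 2.21 in PRMT1 KD (SD, n = 3 each) without overlap, with a log2 difference of -0.14 and an adjusted limma p of 0.136. GOT1 and GLUD1 overlapped between the groups, with log2 differences of -0.034 and 0.019.

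Enzymes of branched-chain amino acid and arginine use had a median log2 difference of 0.051 over 6 of 9 genes tested, none with an adjusted p under 0.05. ODC1, which makes the polyamine putrescine from ornithine and is a known MYC target, had 127.8, 128.9 and 122.7 FPKM in control and 140.3, 150.2 and 151.2 FPKM in PRMT1 KD. Its groups did not overlap, the log2 difference was 0.22, and the adjusted limma p was 0.0684, with a range of 0.0233 to 0.217 over the alternatives. BCKDK and BCAT2 overlapped between the groups, with log2 differences of 0.12 and 0.16.

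Among the 8 regulators known to set transcription of these transporters, MYC alone had an adjusted p under 0.05, beside 2.05% of all genes tested. MYC, the transcription factor that binds the E-box, had 223, 234 and 212 FPKM in control and 286, 284 and 267 FPKM in PRMT1 KD. It rose by 0.32 on the log2 scale with a 95% interval of 0.20 to 0.44 and an adjusted limma p of 0.0399, which ran from 0.00183 to 0.170 over the alternatives. That call was lost in 9 of 14 alternatives, among them each of the 6 that left out a library, while the log2 difference stayed between 0.28 and 0.36. ATF4, the factor that induces many carriers when amino acids are scarce, had 287, 300.3 and 278 FPKM in control and 273, 273 and 274 FPKM in PRMT1 KD. Its PRMT1 KD libraries were all below control, with a log2 difference of -0.077 and an adjusted limma p of 0.370. CEBPB, a partner of ATF4, had a log2 difference of -0.0077 with overlapping groups. The median log2 difference of the 8 regulators was 0.062, and no relation of these levels to those of the transporters was tested.

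**Figure D4:**
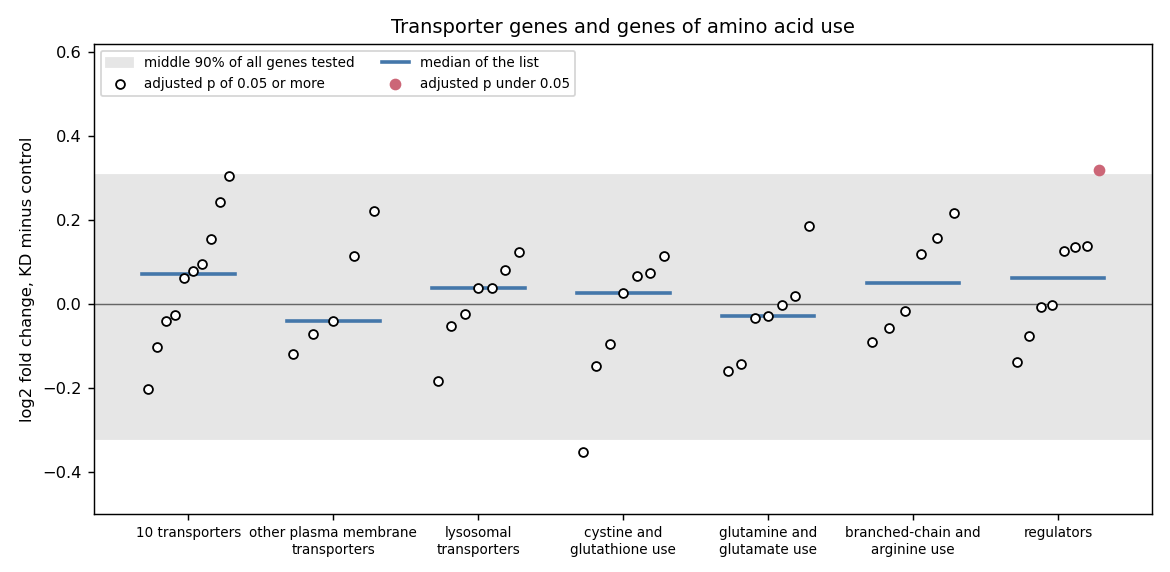
Log2 difference, PRMT1 KD minus control (vertical axis), of each tested gene in the 10 transporters and in 6 lists of related genes (horizontal axis), with the median of each list (blue line) and the middle 90% of all genes tested (grey band). MYC, filled in red at 0.32 among the regulators, is the only gene shown with an adjusted p under 0.05, beside 2.05% of all genes tested, a call lost in 9 of 14 alternatives, and the list medians lie between -0.040 and 0.07.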

How the data were processed

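RNA was extracted with Trizol and libraries followed standard Illumina protocols, per the labels. Reads were counted per gene by the authors with featureCounts 1.5.0-p3, and the genome was hg38, both per the submitters' processing notes. The aligner, annotation release and strand setting were not given in the sources used here. The deposited values are FPKM for 58735 genes, beside gene length and position. The table's positions of all 10 transporter genes equal those of GENCODE 29. Whole reads were recovered from FPKM and length (100% of values within 0.001 of a whole number).

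Genes with a mean of at least 1 FPKM (13585) entered a limma fit (version 3.58.1, R 4.3.3) of log2(FPKM + 1) on group, without a replicate block. Variances were moderated along a trend in mean level, and p-values were adjusted by Benjamini-Hochberg over every gene fitted (threshold 0.05). A fold change on this scale understates the change of low genes. Ratios were tested with exact permutation tests (SciPy 1.17.1). Groups came from the labelled genotype. The study describes its replicates as dependent biological replicates, and whether the libraries came from separate transfections was not given in the sources used here. The p-values therefore measure the spread between these libraries, part of which may be technical.

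Genes named were the 10 transporters, PRMT1, and from each list the genes with an adjusted p under 0.05 and the 3 with the highest mean FPKM, with overlapping genes and pseudogenes that hold reads. An overlapping gene is not reported here. The transporters and lists were chosen with earlier results of these data known. siRNA targets came from the study's supplement. Sequences came from RefSeq (GRCh38.p14), and 3′ UTR matches from GENCODE 29. Alternatives changed the pseudocount, filter, scaling, variance model, count input and replicate block, and left out each library. The script was checked on simulated data, in which the changes put in were larger than that of any of the 10 transporters. The check therefore does not cover differences of the size seen for them.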

Additional observations from a re-analysis of the deposited data

How the results depend on the processing

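No transporter gene had an adjusted p under 0.05 with a pseudocount of 0.1, no filter, a filter at 5 FPKM, TPM, median scaling, no variance trend, or with any 1 library left out (a count of 0 each time). limma voom on reads gave 3 (SLC7A5, SLC38A2 and SLC38A1), in a fit that called 927 of 13585 genes tested. An unadjusted limma p under 0.05 also gave 3, beside 19.5% of all genes tested. Calls over all genes numbered 279, beside 35 without a filter, 473 at 5 FPKM, 43 without the trend, 927 with voom and 13 to 94 with a library left out. The replicate block, a paired fit on replicate numbers, gave 1 (SLC7A5, adjusted limma p of 0.0497) and 204 calls in all. Correlations of same-numbered libraries' deviations were 0.020, 0.0631 and 0.101. Each library correlated best with its own number, but control replicate 1 had nearly the same value, 0.0186, with PRMT1 KD replicate 2. These weak values come from the data, not from the design, and do not show that the libraries were paired.

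Direction changed for SLC7A11 alone, to 0.068 without PRMT1 KD replicate 2 and 0.074 without control replicate 3 (range -0.13 to 0.074), and for SLC7A11 over SLC3A2 (range -0.27 to 0.032, with 0.018 and 0.032 without the same libraries). The cause was not tested. The other 5 ratios kept their direction in all 7 alternatives. PRMT1 stayed between -2.21 and -2.09 in 14 of 14. TPM moved the all-gene median to 0.026 and median scaling to -0.0081, from 0.0095.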
